A study of Mus musculus with 18 samples.

Results

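The H19-Igf2 and Kcnq1ot1 imprinted domains are neighbouring gene clusters near the end of mouse chromosome 7 in which several genes are used from 1 parental copy. All CpGs measured at chr7:149755000-150760000 (build mm9) were taken as members, with both strands of a CpG added. They numbered 1016 of the 1485218 CpGs read in any library. The interval includes the H19 control region at chr7:149766000-149769000, Igf2 at chr7:149836000-149853000 and the Kcnq1ot1 control region at chr7:150480500-150483000. The genes considered were H19, Igf2, Ascl2, Kcnq1, Kcnq1ot1, Cdkn1c and Phlda2.

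Imprinted genes are marked in the germ line by DNA methylation of a control region on 1 parental copy, and that mark is normally kept in all body cells. The H19 control region is methylated on the paternal copy. Its unmethylated maternal copy is bound by the insulator protein CTCF, so that H19, a non-coding RNA, is made from the maternal copy and Igf2, a growth factor, from the paternal copy. The Kcnq1ot1 control region is methylated on the maternal copy. On the unmethylated paternal copy it starts Kcnq1ot1, a long non-coding RNA that silences neighbours on the same chromosome, among them Cdkn1c, a cell cycle inhibitor, and Phlda2, a growth regulator of the placenta. A region with 1 methylated and 1 unmethylated copy reads at an intermediate level in bulk DNA. Parental copies could not be separated in these data.

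The study profiled genomic DNA by reduced representation bisulfite sequencing, which reads CpGs in short restriction fragments and counts each read as methylated or not. Its groups were embryonic stem cells (ESC; 4 female and 2 male libraries), fibroblasts from mouse embryos (MEF; 4 female and 2 male), 2 libraries of female induced pluripotent stem cells (iPSC), and reprogramming intermediates, also labelled female, that carry or lack the surface antigen SSEA1 of mouse pluripotent cells (SSEA1+ and SSEA1-; 2 each). The labels give cell type and sex. The sources used here give no strain, passage, embryo age, reprogramming factors or day, and do not state whether libraries of a group came from separate cultures. P-values therefore measure the spread between these libraries, which may be technical. The title of the series names X chromosome reactivation, and the comparisons asked how the domains differed by sex, from fibroblasts to pluripotent cells, and in the intermediates.

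Each library held between 11424460 and 62920167 reads over CpGs, of which 6102 to 37491 fell in the domains. Libraries differed in a technical property absent from the labels, the percentage of CpGs with reads on both strands: 9.03 to 11.7% in type A (all ESC, female MEF 1 and male MEF 2), 15.2 to 16.05% in type B (all SSEA1 libraries, female MEF 2 and male MEF 1) and 7.25 to 7.46% in type C (both iPSC, female MEF 3 and 4). The types read different CpGs of the same regions, so differences within a type, a check for tiles chosen after seeing the data, are given beside the main called differences where both groups have that type. The share of reads on the X was 2.81 to 2.97% in male libraries and 3.45 to 4.30% in female libraries, except that the library labelled SSEA1+ 2 stood at 2.81%. Group means of SSEA1+ are therefore given with and without that library. Low tiles, those with a mean under 10% over all 18 libraries, were compared between groups. In iPSC they read 3.88% at the median in the domains and 4.14% over the genome, against at most 1.40% in the mean of any other group. What this level reflects was not tested.

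Levels are the percentage of reads that were methylated, in fixed windows of 1 kb (tiles) or in the named regions. A read is counted once at each CpG it covers, so read numbers over several CpGs are numbers of CpG calls. Group means and differences of the control regions outside the tile model are instead means over CpGs, each weighted equally. So are levels over CpGs read in all libraries, unless weighting by reads is stated. These can differ from the mean of the printed library values. A tile was tested where every library had at least 3 CpGs with 5 or more reads, which held for 25 tiles of the domains and 33545 tiles in all. A tile is called, and written as lower or higher, at an adjusted p below 0.05 (quasi-binomial model, Benjamini-Hochberg adjustment over all tiles) with group means at least 20 points apart.

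The promoters of 2 member genes could be tied to the CpGs measured, and they are shown because they were low in methylation throughout. RefSeq promoter sequences (build GRCm38.p6, 250 bases before to 50 after the start) were matched to the mm9 CpGs of the files by their spacing. Of the 7 member genes 4 had such a sequence. Ascl2 encodes a transcription factor of placental trophoblast, and 14 of its 23 promoter CpGs were measured, from 150155120 to 150155398. At Igf2, 8 of 24 CpGs of 1 of its promoters were measured, from 149844902 to 149844958. Both genes lie on the minus strand, and the sequences are written 5′ to 3′ on that strand, with the CpGs that were read in capitals.
Igf2: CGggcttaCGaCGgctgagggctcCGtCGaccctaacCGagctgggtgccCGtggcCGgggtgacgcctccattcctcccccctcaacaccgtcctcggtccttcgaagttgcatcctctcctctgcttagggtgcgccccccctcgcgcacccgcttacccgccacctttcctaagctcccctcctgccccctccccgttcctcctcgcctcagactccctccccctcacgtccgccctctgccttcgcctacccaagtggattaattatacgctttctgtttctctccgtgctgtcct
Ascl2: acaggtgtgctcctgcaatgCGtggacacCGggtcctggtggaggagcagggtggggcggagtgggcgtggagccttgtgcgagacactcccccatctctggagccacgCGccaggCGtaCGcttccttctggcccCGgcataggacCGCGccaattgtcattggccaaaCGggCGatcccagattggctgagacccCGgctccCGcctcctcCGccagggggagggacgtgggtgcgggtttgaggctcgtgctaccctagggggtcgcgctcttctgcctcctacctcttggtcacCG

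The printed Ascl2 CpGs were methylated in 0 to 6.59% of reads, with the highest value in iPSC 1, and no group stood apart by 20 points. The printed Igf2 CpGs were unmethylated in 13 of the 14 libraries that read them, on 10 to 289 reads, and stood at 6.67% in female ESC 2 (1 of 15 reads). The type C libraries did not read them. The promoters of 2 further genes of the cluster were placed in the same way, those of Cd81, a membrane protein of the tetraspanin family (0 to 5.56%), and Tssc4 (0 to 3.16%). Of the 25 tested tiles 11 stood under 10% in every group mean, among them the tiles of the Ascl2 and Tssc4 promoters and 3 in the Igf2 interval.

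The Kcnq1ot1 control region was near unmethylated in every female ESC library and near the intermediate level in every MEF library. In female ESC 1, 2 and 4, 0 of 169, 0 of 112 and 0 of 95 reads were methylated, and in female ESC 3 the level was 3.03%. Taken as independent, these counts of 0 allow levels of up to 1.78%, 2.68% and 3.16%. Reads were counted once at each CpG they covered, so these limits are too low. Female MEF stood at 54.8%, 46.2%, 43.9% and 41.4%, and male MEF at 35.5% and 47.8% (45.8% and 48.1% as means over CpGs). The lowest female MEF library was thus far above the highest female ESC library.

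In the model of its tile (150481001 to 150482000, the 10 measured CpGs of the region), the level of female ESC less that of female MEF was -45.8 points (0.758% ± 1.52 against 46.5% ± 5.83, SD, n = 4 and 4; quasi-binomial model, adjusted p = 1.39e-06). This was 1 of 7 domain tiles called lower and 0 called higher in that comparison, 28% of the 25 tested, against 37.5% of all tiles lower and 0.894% higher. At 2 of the 7, 150256001 and 150623001, the difference within type A was only -8.56 and -4.49 points. The difference lay between -47.5 and -43.03 points when any 1 of the 8 libraries was left out. Within type A, over each library's own CpGs, it was -54.7 points with 4 ESC libraries and 1 MEF library.

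The pair of male ESC libraries was split at the Kcnq1ot1 control region. Male ESC 1 stood at 56.6% (99 of 175 reads; 95% Wilson interval 49.2 to 63.7%), in the range of MEF, and male ESC 2 at 3.95% (3 of 76 reads; 1.35 to 11.0%), within the interval of female ESC 3. The call that female ESC were lower than male ESC (-29.5 points, adjusted p = 9.48e-05 in the quasi-binomial model) therefore rested on male ESC 1. Without it the difference was -3.19 points (adjusted p = 0.371), and without male ESC 2 it was -55.8 points. No sex difference was called in MEF (4.86 points, adjusted p = 0.454). Intervals cover counting error only, and they count a read once at each CpG it covered, so they are too narrow. At each of the 4 CpGs from 150481504 to 150481522, male ESC 1 had 32 reads and male ESC 2 had 13. Reads without molecular identifiers are also not independent molecules.

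The female iPSC libraries fell between female ESC and female MEF at this region. They stood at 17.0% (24 of 141 reads) and 18.9% (23 of 122 reads), above every female ESC library, below every MEF library and above the 3.88% of low tiles in iPSC. Against female MEF the difference was -28.6 points (17.9% ± 1.29, n = 2; quasi-binomial model, adjusted p = 0.00661), and within type C over own CpGs it was -24.9 points with 2 libraries a side. The call was lost with limma on log2 ratios (adjusted p = 0.0833) and without iPSC 1 (-27.7 points, adjusted p = 0.0619). Against female ESC, iPSC stood 17.2 points higher (adjusted p = 0.00595), under the 20 points set for a call, and the pair shares no library type.

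SSEA1+ libraries stood at 29.4% and 37.2% and SSEA1- libraries at 44.1% and 36.4% at the Kcnq1ot1 control region. Both SSEA1+ values were below every female MEF value, and SSEA1- overlapped with MEF. Over own CpGs SSEA1+ differed from female MEF by -11.7 points (2-sided exact permutation p = 0.0667, the smallest that 2 against 4 libraries allow, adjusted 0.167 over 10 comparisons), and by -14.0 points without SSEA1+ 2. Neither group was called against MEF in the tile model (adjusted p = 0.306 and 0.679).

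**Figure D1:**
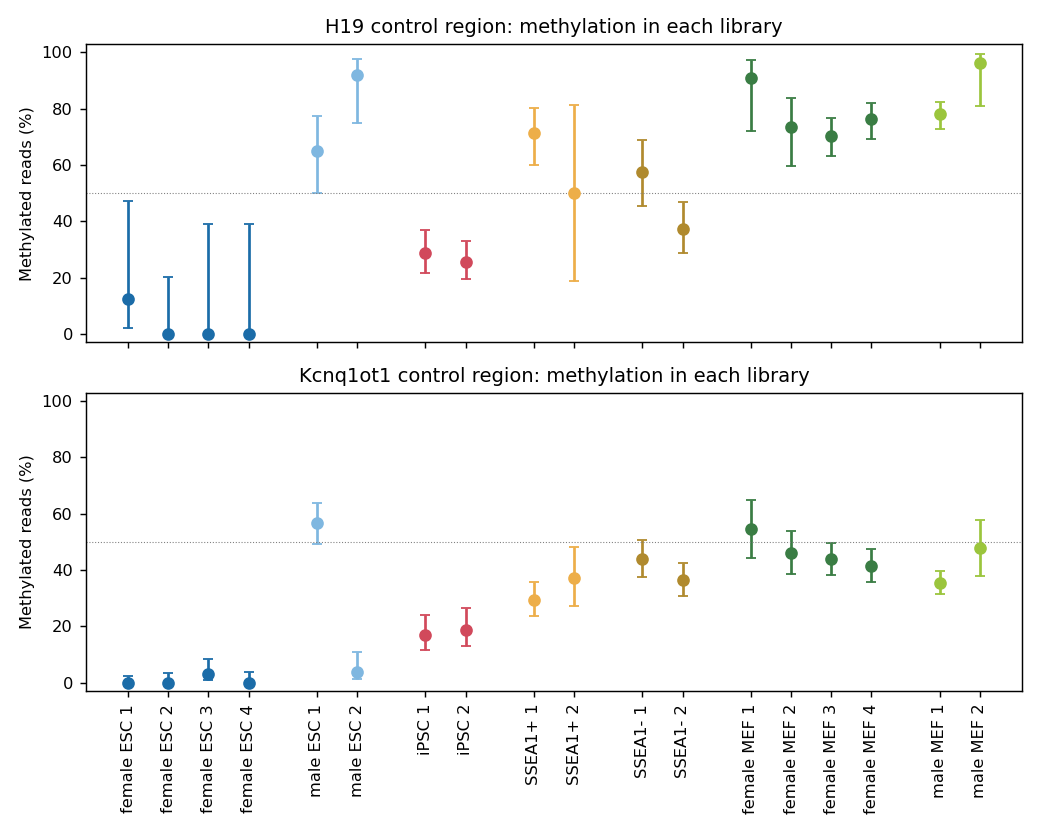
Methylated reads (percent, vertical axis) at the H19 (top) and Kcnq1ot1 (bottom) control regions in each of the 18 libraries. Points are the level over CpGs with 5 or more reads, bars are 95% Wilson intervals for counting error, and the dotted line marks 50%. The bars treat each CpG call as independent and are too narrow where CpGs share reads. Female ESC sit at or near 0 in both panels, and the male ESC pair is split only in the lower panel (56.6% and 3.95%).

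The CpGs behind these values were few and partly shared molecules. Only 1 CpG of the Kcnq1ot1 control region, at 150481374, had 5 reads in all 18 libraries, and there female ESC stood at 0%, 0%, 23.1% and 0% on 13 to 32 reads. Over that CpG alone the female ESC to female MEF difference was -36.5 points and the iPSC to female MEF difference was -24.9 points. There iPSC stood at 21.2% and 13.6%, male MEF at 15.8% (101 reads) and 70% (10 reads), and SSEA1+ at 20.5% and 16.7%. At this CpG iPSC were thus neither below every MEF library nor above every female ESC library. The 4 CpGs from 150481504 to 150481522 had equal read numbers in every library and so lay on the same reads. At them, female ESC and male ESC 2 had 0 methylated calls and male ESC 1 stood at 62.5%. Both iPSC libraries stood at 15.7% and 20%, on 27 and 25 reads at each CpG. The split of the male ESC pair was thus present on these reads, and at 150481374 it was 40.4% against 12.5%.

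At the H19 control region, female ESC were again near 0, and both male ESC libraries were high. Only 3 CpGs were measured there, at 149767047, 149767092 and 149767291, and too few of them were shared for the model. Female ESC had 1 of 8, 0 of 15, 0 of 6 and 0 of 6 methylated reads at CpGs with 5 or more reads, so that a count of 0 allows up to 20% and 50%. Counting every read without that minimum, a choice made after seeing the depth, 1 of 51 reads was methylated in the 4 female ESC libraries together (1.96%). Male ESC stood at 65.1% and 92.0%, female MEF at 90.9%, 73.5%, 70.5% and 76.2%, and male MEF at 78.0% and 96.2%. MEF were thus above the intermediate level at these CpGs.

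Female ESC differed from female MEF by -74.5 points at the H19 control region (3.13% ± 6.25 against 77.6% ± 8.91, n = 4 and 4; exact permutation p = 0.0286, the smallest that 4 against 4 allow, adjusted 0.133 over 10 comparisons). The groups did not overlap, and within type A the difference was -87.5 points with 4 libraries against 1. Between female and male ESC, all of type A, the difference was -78.1 points (2-sided exact permutation p = 0.0667, as low as this design can go, adjusted 0.133). No difference at this region passed 0.05 after adjustment, nor could any with groups of this size.

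In iPSC the H19 control region stood at 28.7% and 25.6% on 129 and 156 reads, between female ESC and female MEF, as at the Kcnq1ot1 control region. The difference from female MEF was -49.9 points (exact permutation p = 0.0667, adjusted 0.133), and -45.2 points within type C, which reads the same CpGs in both groups. Both shared CpGs showed it: 149767092 read 36.1% and 31.3% in iPSC against 67.9% and 70.0% in female MEF 3 and 4, and 149767291 read 22.1% and 21.3% against 72.8% and 80.9%. SSEA1- libraries stood at 57.6% and 37.4%, both below all MEF libraries (-37.7 points, exact permutation p = 0.0667; -34.3 within type B against 1 MEF library). SSEA1+ libraries stood at 71.2% and, on 6 reads, 50%. Their difference from female MEF was -14.7 points, and -1.83 without SSEA1+ 2. Counting every read, SSEA1+ 2 stood at 66.7% (6 of 9 reads), with SSEA1+ together at 70.7%, SSEA1- at 45.1% and female MEF at 74.1%.

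The flank of the H19 control region away from Igf2 followed another order. The tile from 149764001 to 149765000 stood at 88.6% and 100% in male ESC, 19.7 to 31.6% in female ESC, and 67.5% and 63.1% in iPSC. In female MEF its level went with library type, at 29.0% and 13.3% in types A and B and 71.3% and 72.7% in type C, where iPSC were within 10 points of MEF. The next tile with a value in all libraries (149761001 to 149762000) stood between 50.7 and 96.8% in every library, with the lowest value in female ESC 2 and the highest in male ESC 1. Neither tile had enough shared CpGs to be tested.

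The Igf2 interval held both low and intermediate tiles. The tested tiles from 149845001 to 149847000 stood between 0 and 7.03%, and that from 149850001 to 149851000 between 0 and 11.8%. In the first of them male ESC (5.98%) and iPSC (5.04%) were above female MEF (0.912%), differences under 20 points, with iPSC near the level of low tiles in those libraries. Next to the latter, the tile from 149851001 to 149852000 stood at 31.9% ± 2.51 in female ESC, 47.1% ± 6.90 in female MEF, 53.1% ± 6.22 in iPSC and 69.6% ± 11.0 in male MEF. In the tile from 149843001 to 149844000 the order was different, with female MEF at 22.4% ± 5.06, male MEF at 14.1% ± 2.30, iPSC at 49.9% ± 3.95 and male ESC at 58.8% ± 16.6. Female ESC spread from 0 to 69.2% there, on 13 to 35 reads, so that no order can be read for them.

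Over the 8 CpGs of the Igf2 interval read in all libraries, the level was 34.3% ± 13.3 in male ESC, 17.0% ± 7.58 in female ESC, 27.5% ± 3.69 in iPSC, 13.2% ± 1.92 in SSEA1+ (11.9% without SSEA1+ 2), 22.5% ± 9.79 in SSEA1-, 18.8% ± 4.76 in female MEF and 26.4% ± 6.88 in male MEF. Unlike the control regions, this interval did not separate female ESC from female MEF (-1.79 points, quasi-binomial model, adjusted p = 0.416). Female ESC differed from male ESC by -17.3 points (adjusted p = 0.0208 in that model), and iPSC were above female MEF by 8.71 points (adjusted p = 0.0177). None of these reached 20 points. Leaving out male ESC 2 took the sex difference to -7.88 points (adjusted p = 0.144). Leaving out female ESC 2 took it to -13.8 points (adjusted p = 0.0542). The iPSC difference from female MEF did not pass without either iPSC library, nor without female MEF 4 (adjusted p = 0.0569).

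Between Igf2 and the Kcnq1ot1 control region, 5 tested tiles stood at 60% or more in female MEF, a level set after seeing the data. Female ESC were lower than both male ESC and female MEF at 2 of them, lower than male ESC alone at 1, and called in neither comparison at 2. Of these tiles the one with the largest differences lay 9 kb from the Ascl2 promoter tile on the Igf2 side (150146001 to 150147000). Female ESC there stood at 49.4%, 55.3%, 45.6% and 43.8%, iPSC at 48.1% and 47.0%, male ESC at 90.1% and 93.5%, and female MEF at 91.9%, 84.7%, 85.8% and 80.8%. Female ESC and iPSC overlapped, and neither overlapped with male ESC or MEF. The differences were -43.3 points for female against male ESC (quasi-binomial model, adjusted p = 1.72e-05), -37.3 for female ESC against female MEF (adjusted p = 1.13e-06) and -38.2 for iPSC against female MEF (adjusted p = 7.07e-06). Within types they were -43.4 points for female ESC (type A, 1 MEF library) and -35.7 points for iPSC (type C) against female MEF.

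At that same tile iPSC were also lower than male ESC (-44.2 points, quasi-binomial model, adjusted p = 0.000208), and 0.334% of all tiles had a more negative difference in that comparison. This last call was lost with library type as a term (adjusted p = 0.0577). SSEA1+ and SSEA1- libraries stood at 86.1%, 89.3%, 78.7% and 93.3%, within the range of MEF. The Ascl2 promoter itself stayed low in all of these libraries, as given beside its sequence.

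The tile from 150030001 to 150031000 stood at 87.9% and 80.9% in male ESC, 51.3 to 56.4% in female ESC, 69.5% and 65.7% in iPSC, and 79.7 to 89.6% in female MEF. Female ESC were lower both than male ESC (-31.6 points, adjusted p = 3.25e-06, quasi-binomial model) and than female MEF (-30.8 points, adjusted p = 5.08e-08; -36.7 within type A against 1 library). iPSC lay between, 14.8 points above female ESC and at a difference of -16.1 points from female MEF. At 149957001 to 149958000 female ESC (62.4% ± 2.47) and iPSC (65.5% ± 3.96) were lower than male ESC (87.7% ± 3.50), by differences of -25.3 and -22.3 points (adjusted p = 0.000483 and 0.00256). The iPSC call there was lost with reads capped at 50, with library type as a term, without male ESC 2 and without iPSC 1.

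In all, 5 domain tiles were lower and 0 higher in female than in male ESC, 20% of those tested, beside 26.8% lower and 0.0358% higher over all tiles. The median difference of the domain tiles was -4.60 points and that of all tiles -4.56. In iPSC against female MEF, 5 were lower and 0 higher, beside 23% and 2.55% of all tiles, and against male ESC 3 were lower and 0 higher, beside 9.16% and 0.614%. In MEF 1 tile was lower and 0 higher in females, beside 0.882% and 0.808%, and in male ESC 2 were lower and 1 higher than in male MEF, beside 18.9% and 3.8%. The shares in the domains were thus near or below those of the genome in the comparisons of ESC. In iPSC against female ESC 1 tile was higher and 0 lower, beside 11.2% and 0.247%.

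That last tile (150256001 to 150257000) adjoins the tile of the Tssc4 promoter and varied within groups, on as few as 20 reads. It stood at 4.35 to 10.6% in female ESC and 32.3% and 30.8% in iPSC, but at 42.9% and 0% in male ESC and from 15.3 to 52.9% in female MEF. It was also the 1 tile called between female and male MEF, where the groups overlapped, and that difference was -1.92 points without male MEF 1. With library type as a term none of its 4 calls held. Its call in iPSC against female ESC was lost in all 6 fits that left out 1 library, and the 1 tile called without iPSC 2 was another.

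**Figure D2:**
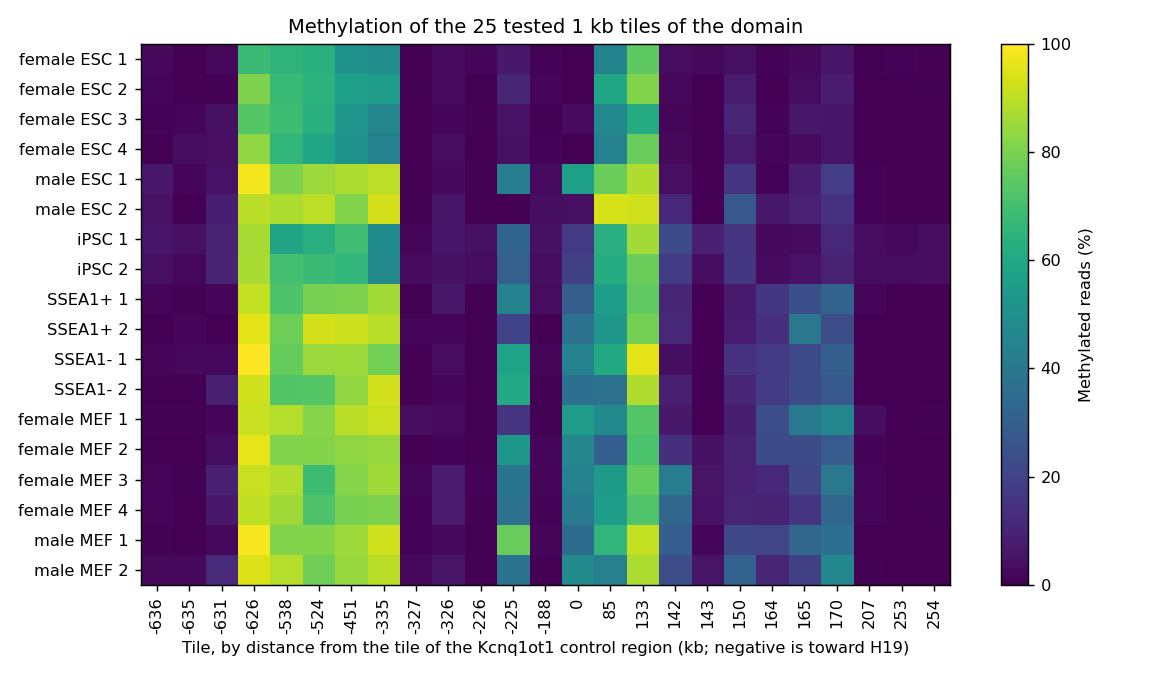
Methylation (percent of reads, color) of the 25 tested tiles (horizontal axis, by distance in kb from the tile of the Kcnq1ot1 control region) in the 18 libraries (vertical axis). The dark columns are tiles that stood low in all groups, and at -335 kb the 4 female ESC and both iPSC libraries stand between 43.8 and 55.3% while all other libraries stand above 78%.

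Beyond the Kcnq1ot1 control region, the tile at 150566001 to 150567000 was set apart by high male ESC. Male ESC stood at 77.7% and 93.9%, female ESC at 44.4 to 59.0%, iPSC at 63.2% and 61.7%, and MEF from 29.7 to 65.8%. Male ESC were higher than male MEF by 31.04 points (quasi-binomial model, adjusted p = 0.0165), a call lost without male ESC 2 (adjusted p = 0.148) and without male MEF 2 (19.97 points), and 42.1 points within type A against 1 library. Female ESC were lower than male ESC (-36.9 points, adjusted p = 0.00198), and this call held without any 1 of the 6 ESC libraries. So were iPSC (-23.3 points, adjusted p = 0.0347), a call lost without either iPSC library and without male ESC 2 (-15.2 points).

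In the 3 tested tiles of a CpG-rich block 163 to 170 kb beyond the Kcnq1ot1 control region tile (150644001 to 150652000, 110 CpGs), every pluripotent library stood below every MEF and intermediate library. The share of all tiles separated in this way is not given, and 37.5% of all tiles were called lower in female ESC than in female MEF. In the 4 untested tiles of the block with a value in all libraries, pluripotent libraries overlapped with the others. Pluripotent cells were not tested against the intermediates. By gene order this side holds the rest of Kcnq1, a potassium channel gene, then Cdkn1c and Phlda2, but no gene start could be placed on the block. Its tile at 150651001 to 150652000 stood at 18.2% and 14.3% in male ESC, 5.86%, 7.64%, 5.65% and 5.75% in female ESC, and 11.3% and 9.43% in iPSC. Female MEF stood at 45.8%, 28.6%, 40.2% and 33.2%, male MEF at 36.5% and 46.8%, SSEA1+ at 31.7% and 23.4%, and SSEA1- at 30.3% and 27.5%. The highest pluripotent library (18.2%) was below the lowest of the others (23.4%).

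In that tile female ESC were lower than female MEF by a difference of -30.7 points (adjusted p = 3.43e-08, quasi-binomial model), iPSC by -26.6 points (adjusted p = 7.72e-07), and male ESC lower than male MEF by -25.4 points (adjusted p = 0.000345). All 3 calls held with each library left out in turn, and within types the differences were -39.6, -26.3 and -30.6 points, with 1 MEF library in the ESC comparisons. It was the 1 domain tile in which ESC of both sexes were called lower than MEF of their sex by adjusted p and kept that call in each such fit. Female ESC also stood below male ESC (-9.996 points, adjusted p = 0.00276), under the 20 points of a call. SSEA1+ and SSEA1- were not called against MEF (adjusted p = 0.356 and 0.186), nor was SSEA1+ without SSEA1+ 2.

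The block and its other tested tiles were chosen after their values were seen. The block was set to end at the tile above, the last one called lower in female ESC than in female MEF. Its levels are therefore descriptive and no test of the block. At 150645001 to 150646000 (48 CpGs) female ESC stood at 0.871% ± 0.655, male ESC at 3.99% ± 4.001, iPSC at 2.69% ± 0.221, female MEF at 17.1% ± 7.38, SSEA1+ at 15.1% ± 1.42 (16.1% without SSEA1+ 2) and SSEA1- at 17.2% ± 0.545. At 150646001 to 150647000 female ESC (3.73% ± 1.93) and iPSC (3.83% ± 1.21) were lower than female MEF (25.01% ± 10.8) by differences of -21.3 and -21.2 points (quasi-binomial model, adjusted p = 8.34e-05 and 0.000768). Without female MEF 1 these differences were -16.2 and -16.1 points, under the 20 points of a call, and within types they were -36.6 points (type A, female MEF 1 alone) and -14.3 points (type C). Over the 12 CpGs of the block read in all libraries the level was 19.8% ± 1.34 in male ESC, 8.61% ± 2.20 in female ESC, 16.3% ± 2.62 in iPSC, 35.1% ± 1.10 in SSEA1+ (35.8% without SSEA1+ 2), 40.3% ± 5.87 in SSEA1-, 37.7% ± 4.15 in female MEF and 42.4% ± 1.22 in male MEF.

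**Figure D3:**
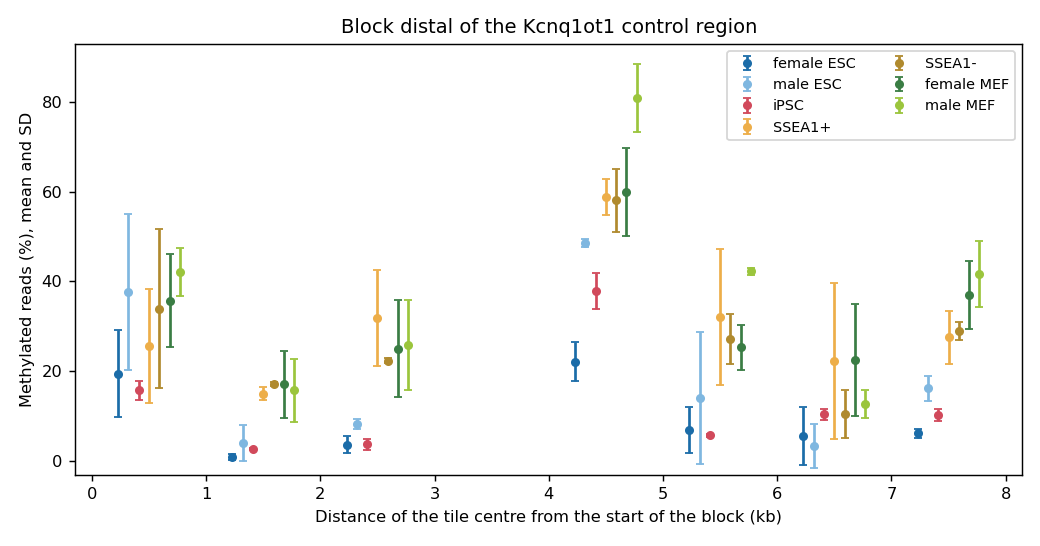
Methylation (percent of reads, vertical axis) of the tiles of the block with a value in all 18 libraries, by distance of the tile centre from the start of the block (kb, horizontal axis). Points are group means and bars are 1 SD over libraries (n = 4 for female ESC and female MEF, 2 for other groups); the last tile shows female ESC at 6.22%, iPSC at 10.4% and female MEF at 36.9%.

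The intermediates were not called at any tested tile of the domains. Against female MEF, 0 of 25 tiles were called in SSEA1- and 0 in SSEA1+, beside 2.01% and 2.76% of all tiles, and 0 between SSEA1+ and SSEA1-, beside 1.31%. At an unadjusted p below 0.05 in the quasi-binomial model, with no minimum difference, these counts were 8, 3 and 2 tiles, and limma called 0 in each. At an adjusted p below 0.05 in the quasi-binomial model they were 4, 0 and 0, with differences too small for a call. The shares of all tiles at these looser thresholds are not given, so these counts cannot be set against the genome. SSEA1- differed from female MEF by 18.6 points at 150614001 (adjusted p = 0.00581) and -11.4 points at 149943001 (adjusted p = 0.0352). The groups did not overlap at either tile. At 150624001 and 150688001 the differences were -3.38 and -2.02 points (adjusted p = 0.0294 and 0.0424). Without SSEA1+ 2 both counts of called tiles for SSEA1+ were still 0. SSEA1- against female MEF gave 1 called tile without SSEA1- 2, without female MEF 1 and without female MEF 2.

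Over the 85 CpGs of the domains outside the control regions that all libraries read, the level was 37.7% ± 1.12 in male ESC, 25.7% ± 1.21 in female ESC, 33.2% ± 1.78 in iPSC, 35.9% ± 0.414 in SSEA1+ (35.6% without SSEA1+ 2), 36.2% ± 2.64 in SSEA1-, 37.1% ± 0.977 in female MEF and 39.8% ± 0.815 in male MEF. The autosomal means were 49.6%, 33.0%, 42.7%, 49.8%, 51.1%, 52.2% and 54.0% in the same order. Female ESC thus stood lowest in both, with all 4 libraries below every other library. The difference of female ESC from female MEF was -11.5 points in the domains and -19.2 points over autosomes (exact permutation p = 0.0286 for each, adjusted 0.133). At the Kcnq1ot1 and H19 control regions it was -45.5 and -74.5 points over own CpGs, measures with other CpGs and levels, and that contrast was not tested.

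**Figure D4:**
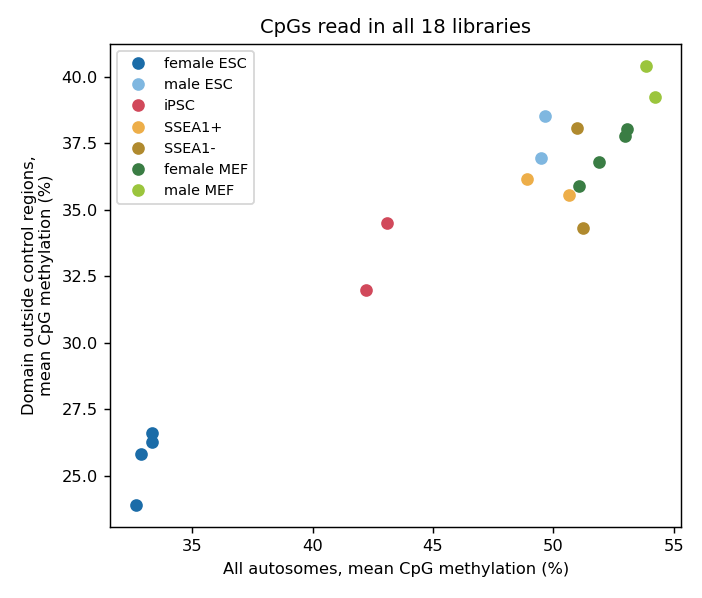
Mean CpG methylation of the domains outside the control regions (percent, 85 CpGs, vertical axis) against that of all autosomes (percent, horizontal axis) in the 18 libraries. Each point is 1 library, and neither axis starts at 0; female ESC stand apart at 23.9 to 26.6% in the domains and iPSC lie between them and the other groups on the autosomal axis.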

How the data were processed

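Members, regions and gene lists were chosen with earlier results of these data known. The deposited tables hold, per CpG and strand, a count of methylated and a count of all reads made by the authors, and a deposited score set from their ratio, which was not used. Coordinates are on mm9, per the submitters' processing notes, printed from 1. The sources used here name no aligner or filter.

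Strands were added, CpGs with fewer than 5 reads in a library were left out of its values, and reads were summed in tiles of 1 kb. All tiles and libraries entered a quasi-binomial logistic model (7 group means), with dispersion moderated by empirical Bayes as in limma's squeezeVar (checked against it) and kept at 1 or more. It was tested on simulated data. F tests were Benjamini-Hochberg adjusted per comparison. The control regions had fewer than 3 CpGs shared by all libraries, so, unlike planned, their levels over own CpGs were compared by exact permutation tests alone, and the Kcnq1ot1 region also through its tile. For the Igf2 interval the model included it as a feature.

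Tiles named are those in the control regions and Igf2, those tied to a member's start, and the 3 largest non-overlapping called differences per comparison and direction; exceptions are marked. Promoters were placed by at least 8 matched CpGs and a lead of 2 over the next best place, a rule set after seeing the matches; Igf2 sits at both limits. A stricter first rule had placed none. Gene order came from RefSeq (GRCm38.p6). Female MEF 3 and 4 had a mean chi-square of 1.33 per tile, against 1.48 to 8.72 in other pairs and 1 for counting noise, and were kept as 2 libraries. Alternatives were minimums of 10 and 3 reads, limma on log2 ratios (prior count 1), a replicate block, a cap of 50 reads, library type as a term, own CpGs, read weighting and leaving out each library; values within types, the 1 shared Kcnq1ot1 CpG and merging female MEF 3 and 4 were partly or wholly chosen after seeing the data. Same-numbered female ESC and MEF did not deviate together. Software was limma 3.58.1 in R 4.3.3, and scipy 1.17.1, pandas 2.3.3 and numpy 2.4.6 in Python 3.11.15.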

Additional observations from a re-analysis of the deposited data

Results flagged for a closer look

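Among 28 groups of 4 libraries examined, 5 held a library far from the rest. A chance rate of about 1 in 20 does not apply where the other libraries stood at 0. The Kcnq1ot1 control region and its tile also hold the same reads. Female ESC 1 stood at 12.5% at the H19 control region, on 8 reads, with the other female ESC libraries at 0. Female ESC 3 stood at 2.88% as the mean over CpGs of the Kcnq1ot1 control region, and at 3.03% of reads in its tile (150481001), with the others at 0. Female ESC 2 stood at 56.4% in the tile at 150030001, above 51.3 to 52.2% in the others, and at 7.64% in the tile at 150651001, above 5.65 to 5.86%.

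At 6 tiles the sexes differed by unequal amounts in ESC and in MEF, by a test of the difference itself in the quasi-binomial model, and at 4 of them by at least 20 points. The female minus male difference in ESC less that in MEF was -30.2 points at 150030001 (adjusted p = 0.00185), -37.8 at 150146001 (adjusted p = 0.0178), -34.4 at 150481001 (adjusted p = 0.000522) and -29.0 at 150566001 (adjusted p = 0.0408). The 2 under 20 points were 149943001 (-18.5, adjusted p = 0.0199) and 150651001 (-5.29, adjusted p = 0.0288). The logistic model compares odds and not points, and 149855001 did not pass at -12.8 points (adjusted p = 0.861). The share of all tiles passing this test is not given. Over all tiles, 26.8% were called lower in female than in male ESC, and 0.882% lower in female than in male MEF. At 150481001, the Kcnq1ot1 control region, the value rests on male ESC 1, since male ESC 2 stood at 3.95%.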

How the results depend on the processing

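Recomputing each region level and count of called tiles under the alternatives gave 475 values labelled the same, 32 that moved, 24 that reversed, 10 that lost the threshold and 1 that passed it. For a difference with an adjusted p, the same meant an equal direction and side of the threshold. For a count of called tiles it meant a change within a set fold limit. For a difference without a test of its own it meant an equal direction and a change within the larger group SD. Each reversed difference had an adjusted p above 0.05 to begin with. For the control regions and the whole domain, the permutation test could not pass 0.05 after adjustment with groups of this size. For them neither that p nor the side of the threshold tells how stable a value was. Of the 25 called pairs of a tile and a comparison, 11 kept their call in every alternative that gave a value. The cause of the changes was not tested, except that at a minimum of 10 reads fewer domain tiles (10) were tested.

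At 10 reads, called tiles were 3 for female against male ESC, 0 for female against male MEF, 2 for female ESC against female MEF, 1 for male ESC against male MEF, and 2, 0 and 1 for iPSC against female MEF, female ESC and male ESC. At 3 reads, male ESC against male MEF gave 5. The count of female against male MEF was 0 with limma and with library type as a term, and that of iPSC against female ESC was 0 with limma, with reads capped at 50 and with library type as a term, which left 1 for iPSC against male ESC. Same-numbered libraries share only a number (correlations of deviations between female ESC and female MEF -0.0127 to -0.00111, with 0 of 4 best with their own number); with the replicate block the counts for female against male MEF and for iPSC against female ESC were 0 and 0, and 7 for female ESC against female MEF.

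With 1 library left out, counts ranged from 0 to 1 for SSEA1- against female MEF, female against male MEF, and iPSC against female ESC, from 3 to 5 for iPSC against female MEF, and from 1 to 4 for iPSC against male ESC and for male ESC against male MEF. A group left with 1 library is assumed to vary like the others.

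In the Igf2 interval, iPSC stood above female MEF by 8.71 points and above female ESC by 10.5 points, and neither passed with limma (adjusted p = 0.125 and 0.0885); the latter also did not with library type as a term (adjusted p = 0.546). With 1 library left out these differences ranged from 6.11 to 11.3 and from 7.06 to 13.1 points, female against male ESC from -26.7 to -7.88, female ESC against female MEF from -4.05 to 1.65, male ESC against male MEF from -1.48 to 17.3, iPSC against male ESC from -16.2 to 2.63, and SSEA1- against female MEF from -3.19 to 10.7. Over own CpGs, female against male MEF was 1.73, iPSC against male ESC 3.69 and SSEA1- against female MEF -5.23 points.

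At the Kcnq1ot1 control region, female against male MEF was 0.459 points at 10 reads, 4.86 weighted by reads and 7.23 within type A, and -3.76 to 0.872 with 1 library left out. Leaving out 1 library gave -44.5 to 11.1 points for male ESC against male MEF and -40.3 to 15.3 for iPSC against male ESC, depending on which male ESC library was kept. Female ESC against female MEF was -54.7 points within type A, and -87.5 at the H19 control region, where male ESC against male MEF ranged from -18.1 to 2.79 with 1 library left out.

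For the whole domain, male ESC against male MEF was 1.14 points over own CpGs and 1.92 weighted by reads, iPSC against female MEF 0.298 over own CpGs, and female against male MEF 1.24 weighted by reads. Within type B, SSEA1- and SSEA1+ differed from female MEF by 0.290 and -0.0522 points. With 1 library left out, SSEA1+ against SSEA1- ranged from -2.21 to 1.53 and SSEA1- against female MEF from -2.81 to 0.929. For the control regions limma, the replicate block, the cap and the library type term were not run, since the regions were not in the model, and the Igf2 interval gave no value at 10 reads. At the H19 control region female ESC had 6 to 15 reads, and 0 of its 3 CpGs had 5 reads in all libraries.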
